A study of Mus musculus with 18 samples.

Results

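The genes described here are the integrin subunits and laminin chains of mouse dorsal root ganglion (DRG) cultures, 39 of the 17198 genes in the table. They were chosen by symbol alone: every gene named Itga or Itgb with a subunit name, and every gene named Lama, Lamb or Lamc with a chain number. This gave 28 integrin and integrin-like genes and 11 laminin chain genes, and it left out 3 genes whose products bind integrin tails (Itgb1bp1, Itgb1bp2 and Itgb3bp). All 39 passed the filter on low values.

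RNA was sequenced from cultured DRG neurons of wild-type mice (WT) and of mice heterozygous for the tm1a allele of Dynlrb1 (HET), each at 12, 24 and 48 h in culture, with 3 biological repeats per genotype and time and 18 samples in all. Dynlrb1 encodes a light chain of cytoplasmic dynein, and tm1a is a knockout-first insertion in one copy of the gene. The labels name no further allele, treatment or agent, and they give no age or sex of the mice and no number of mice behind a culture. Repeats carry the numbers 1, 2 and 3 at 48 h, and the earlier times have a 5 in place of the 3.

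Integrins are cell-surface receptors made of 1 alpha and 1 beta subunit that tie the extracellular matrix to the actin cytoskeleton. Laminins are secreted trimers of an alpha, a beta and a gamma chain, and they are the main adhesive proteins of the basement membrane around axons, glia and vessels. Sensory neurons extend neurites on laminin through alpha subunits that pair with Itgb1, and both laminin and its receptors are known for their part in peripheral axon growth.

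Values are the authors' normalized counts. Sequencing depth is unknown, so precision rests on the spread between cultures. Dynlrb1 ranged from 5229 to 6674 normalized counts in the 9 WT cultures and from 2716 to 4087 in the 9 HET cultures, with no overlap. All 12 neuron markers were measured, with a summed normalized count between 538030 and 767631 per culture. Markers of other cells were present too: 12 genes of Schwann cells and satellite glia summed to between 38326 and 54383, 6 fibroblast genes to between 4878 and 27597, and 8 endothelial genes to between 5646 and 13410. In such bulk RNA, fewer cells of a type and less RNA per cell cannot be told apart. HET replicate 3 at 48 h stood nearer the earlier times than its group. The 6 members that rose from 12 to 48 h in WT had a median log2 difference from the WT 12 h mean of 0.12 in that culture, against 0.78 and 0.94 in the other HET cultures at 48 h, and calls over time in HET that it changed are given with and without it. WT replicate 3 was also the lowest WT culture at 48 h by this measure, at 0.88 against 1.45 and 1.60.

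The sequence before the start of Itgb1, Itgb5 and Itga2 is shown because these genes rose in both genotypes and had a window in the promoter table that overlaps no annotated exon; the windows of Lamb3, which also rose in both, overlap its own exons. Each window holds the 250 bases upstream of the annotated start, from RefSeq on GRCm38.p6, written 5′ to 3′ on the strand of the gene. Capitals mark the letters GGGCGG or their reverse complement CCGCCC, the core of a GC box.

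Itgb1, chr8:128685404-128685653, plus strand: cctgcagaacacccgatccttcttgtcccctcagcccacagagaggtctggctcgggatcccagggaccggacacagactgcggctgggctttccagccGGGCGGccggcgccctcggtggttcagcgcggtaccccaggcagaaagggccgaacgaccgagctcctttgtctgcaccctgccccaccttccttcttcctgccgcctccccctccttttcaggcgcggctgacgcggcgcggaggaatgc

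Itgb5, chr16:33829415-33829664, plus strand: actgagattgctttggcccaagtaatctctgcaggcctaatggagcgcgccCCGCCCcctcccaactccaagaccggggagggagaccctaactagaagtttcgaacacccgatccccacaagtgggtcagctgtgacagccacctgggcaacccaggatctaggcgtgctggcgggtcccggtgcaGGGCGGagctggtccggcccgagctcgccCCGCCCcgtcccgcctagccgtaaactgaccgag

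Itga2, chr13:114932101-114932350, minus strand: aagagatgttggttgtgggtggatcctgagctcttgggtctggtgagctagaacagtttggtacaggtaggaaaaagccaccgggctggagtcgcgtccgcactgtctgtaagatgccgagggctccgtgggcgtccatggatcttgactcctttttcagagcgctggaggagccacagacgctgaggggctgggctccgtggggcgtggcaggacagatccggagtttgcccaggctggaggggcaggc

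The Itgb1 window held 1 GC box and a GC content of 68%, the Itgb5 window 3 and 65.2%, and the Itga2 window 0 and 60.8%. The median GC content of all 32851 windows was 52.4%. Of the 39 members, 25 had an entry, with 28 windows between them. GGGCGG on either strand was in 10 of those 28 windows and in 32.7% of all windows. The letters TGANTCA, a loose form of the AP-1 site with any base at N, read the same on both strands. They were in 1 of the 28 windows (Itgax) and in 6.75% of all. None of the 3 windows shown held TGANTCA.

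Across the 18 cultures, 2 subunits stood far above the other members in FPKM, the authors' length-scaled level. Itgb1, the beta subunit shared by most matrix receptors, had a mean of 197 FPKM (108.8 to 360.3). Itga7, an alpha subunit that binds laminin, had a mean of 135 FPKM (41.5 to 405). These levels put the alpha7 and beta1 chains of one laminin receptor at the top. Itga3, another laminin-binding alpha subunit, followed at 24.9 FPKM, and the laminin gamma chain Lamc1 at 19.8 FPKM. Itgav, which binds matrix proteins that carry an RGD motif, had 15.7 FPKM. The laminin chains Lama4 and Lamb1 had 13.9 FPKM each, the fibronectin receptor subunit Itga5 had 11.4 and Itga6 had 10.4. Itgb8 had 9.31 FPKM, Itgb5 7.52, Lamb2 4.87, Itgb3 4.15, Lama2 4.05 and Itgb2 2.13. Among the remaining genes whose values are given here, the mean ran from 0.113 FPKM (Itgad) to 1.44 FPKM (Itgb6). Ranges of neighbours among the named genes overlapped, other than that Itga7 lay above Itga3 in every culture.

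Between 12 and 48 h in WT, the receptor subunits Itga7, Itgb1, Itga3, Itga2 and Itgb5 rose with the laminin chain Lamb3, while most leukocyte integrins and 3 laminin chains fell. With limma and Benjamini-Hochberg adjustment over all genes at a threshold of 0.05, 17 of 39 members passed, 6 higher and 11 lower. The background was high, since 47.1% of all genes passed in this comparison, 30% higher and 17.1% lower. The members' median log2 fold change was -0.30, against 0.11 over all genes. Of 28 integrin genes, 5 rose and 8 fell; of 11 laminin chains, 1 rose and 3 fell. In HET, 7 members passed, 6 higher and 1 lower, against 14.2% of all genes (10.6% higher, 3.62% lower), with a median of 0.09 beside 0.10 over all genes. The HET count was 18 (13 higher, 5 lower, beside 28.4% of all genes) without HET replicate 3 at 48 h, and 0 without HET replicate 2 at 12 h or without HET replicate 1 or 2 at 48 h. In WT the count was 11 without WT replicate 1 at 12 h. Shares of all genes are not given for these counts of 0 and 11, so they are not read as particular to the members. The 12 and 48 h cultures did not overlap for 20 members in WT, beside 55.3% of all genes, and for 12 in HET, beside 29.7%. Of the 12 neuron markers, 3 rose and 6 fell in WT and 1 rose and 3 fell in HET. Among 12 markers of Schwann cells and satellite glia, 2 rose and 3 fell in WT and 2 fell in HET. The part of such shifts in the changes of the members was not tested.

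**Figure D1:**
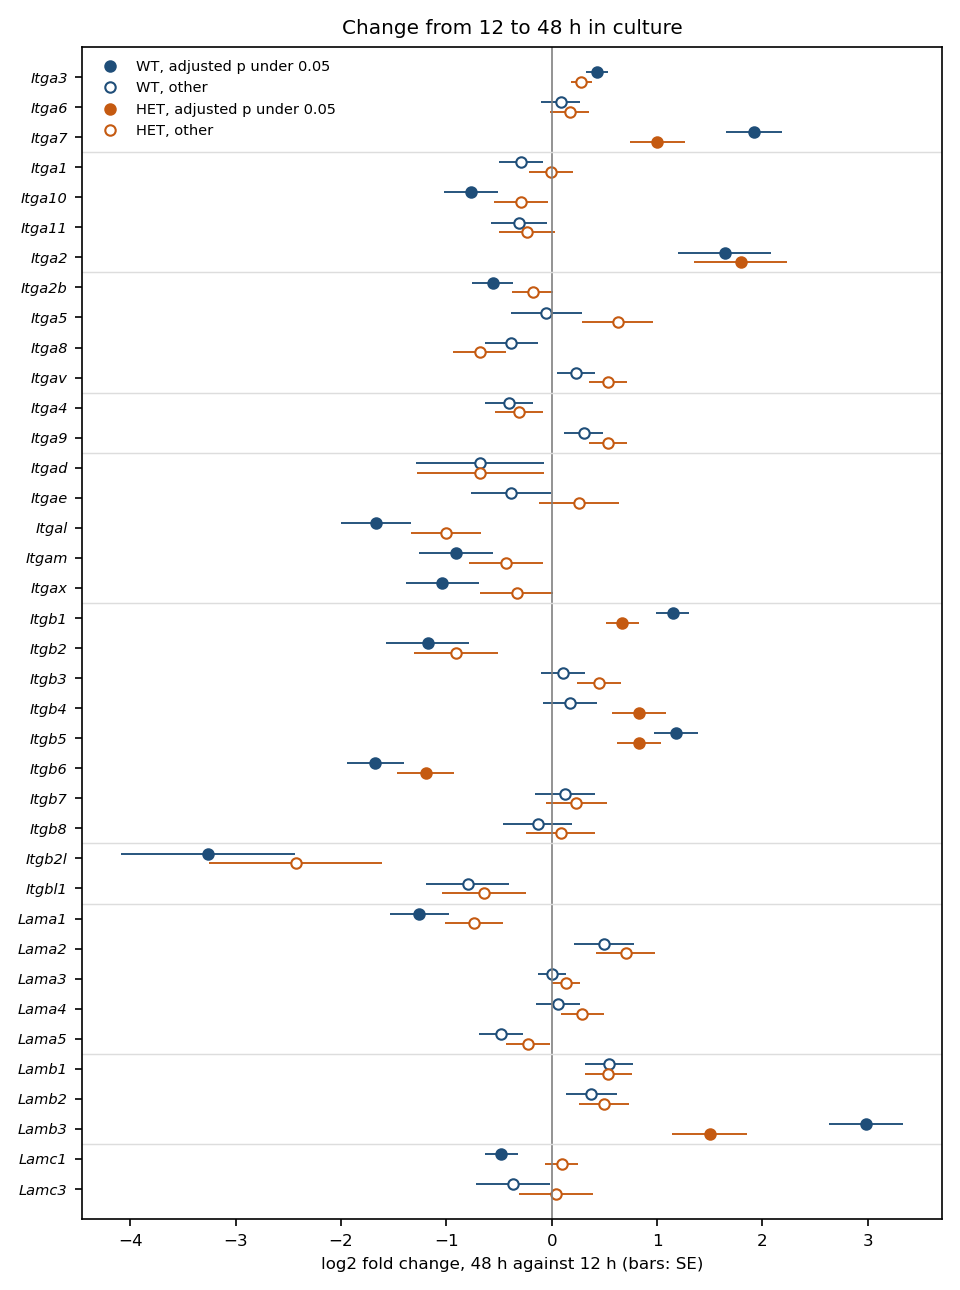
Change of the integrin and laminin genes reported here between 12 and 48 h in each genotype. The x axis is the log2 fold change on the log2(normalized count + 1) scale, bars are SE, filled points passed limma at an adjusted p under 0.05, and lines separate the groups by role. Lamb3, Itga7, Itga2, Itgb5 and Itgb1 lie to the right in both genotypes, and Itgb6 and Itgb2l to the left, the last filled in WT alone.

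Of the subunits that bind laminin, Itga7 rose most (ENSMUSG00000025348, chr10:128933818-128958282, GRCm38). It had 13314, 10779.8 and 10624 normalized counts in WT at 12 h, 20556, 24445 and 24207 at 24 h, and 34146, 67524 and 35771 at 48 h. In HET it had 10524, 6926 and 9548 at 12 h, 32984, 19857 and 30442 at 24 h, and 18992, 23843 and 12349 at 48 h. Every WT culture at 48 h was above every earlier WT culture, whereas the HET cultures at 48 h overlapped those at 24 h and stayed above those at 12 h. The log2 fold change against 12 h in WT was 0.999 (SE 0.26, limma adjusted p 0.0459) at 24 h and 1.92 (SE 0.26, 6.06e-05) at 48 h, a 3.78-fold rise. In HET it was 1.61 (0.00162) at 24 h and 1.002 (0.0238) at 48 h. The 24 h call in WT was lost without any 1 of its 6 cultures. Itga7 overlaps the measured gene Mettl7b on the other strand, and the strand setting of the counting is not given in the sources used here.

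Itgb1 rose with it (ENSMUSG00000025809, chr8:128685654-128733200). WT had 24744, 24027 and 23989 normalized counts at 12 h, 31272, 32011 and 34881 at 24 h, and 54301, 62729.5 and 45513 at 48 h. HET had 24116, 18948 and 25029 at 12 h, 35411, 32787 and 38500.3 at 24 h, and 40260.2, 42990.2 and 26719.9 at 48 h. The 3 times did not overlap in WT, and in HET replicate 3 at 48 h fell below all 24 h cultures. At 48 h the log2 fold change was 1.15 in WT (SE 0.15, limma adjusted p 5.17e-05), or 2.22-fold, and 0.67 in HET (SE 0.15, 0.0163).

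Itga3, whose product pairs with Itgb1 to bind laminin, changed less. Its counts in WT were 4242, 4272 and 4875 at 12 h, 5259, 5361 and 5156 at 24 h and 5902, 6719 and 5444 at 48 h. In HET they were 3978, 3742 and 4441 at 12 h, 5853, 5094 and 5061 at 24 h and 5083, 5454 and 4295 at 48 h. WT cultures did not overlap between the times, and in HET the 12 and 48 h cultures overlapped. From 12 to 48 h the log2 fold change was 0.43 in WT (SE 0.10, limma adjusted p 0.00307) and 0.28 in HET (SE 0.10, 0.0743; without HET replicate 3, 0.38 and 0.0124). HET passed at 24 h, at 0.40 (limma adjusted p 0.0148).

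Itga6, the alpha subunit that pairs with Itgb1 or Itgb4 to bind laminin, passed in no comparison. It had 2982, 2451 and 2719 normalized counts in WT at 12 h, 2211, 2358 and 2671 at 24 h and 3045, 2945 and 2642 at 48 h. HET had 2294, 1811 and 2408 at 12 h, 1972, 3017 and 2914 at 24 h and 2371, 3321 and 1808 at 48 h. The 12 and 48 h cultures overlapped in both genotypes, with log2 differences of 0.08 in WT and 0.17 in HET (SE 0.19 each, limma adjusted p 0.737 and 0.564). Itgb4, the hemidesmosome subunit, had a mean near 1 FPKM (0.939). It passed from 12 to 48 h in HET, at 0.83 (SE 0.26, limma adjusted p 0.0426), with 143, 131 and 207 normalized counts at 12 h and 351, 361 and 172 at 48 h, which overlapped. In WT its log2 difference was 0.17 (0.603).

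**Figure D2:**
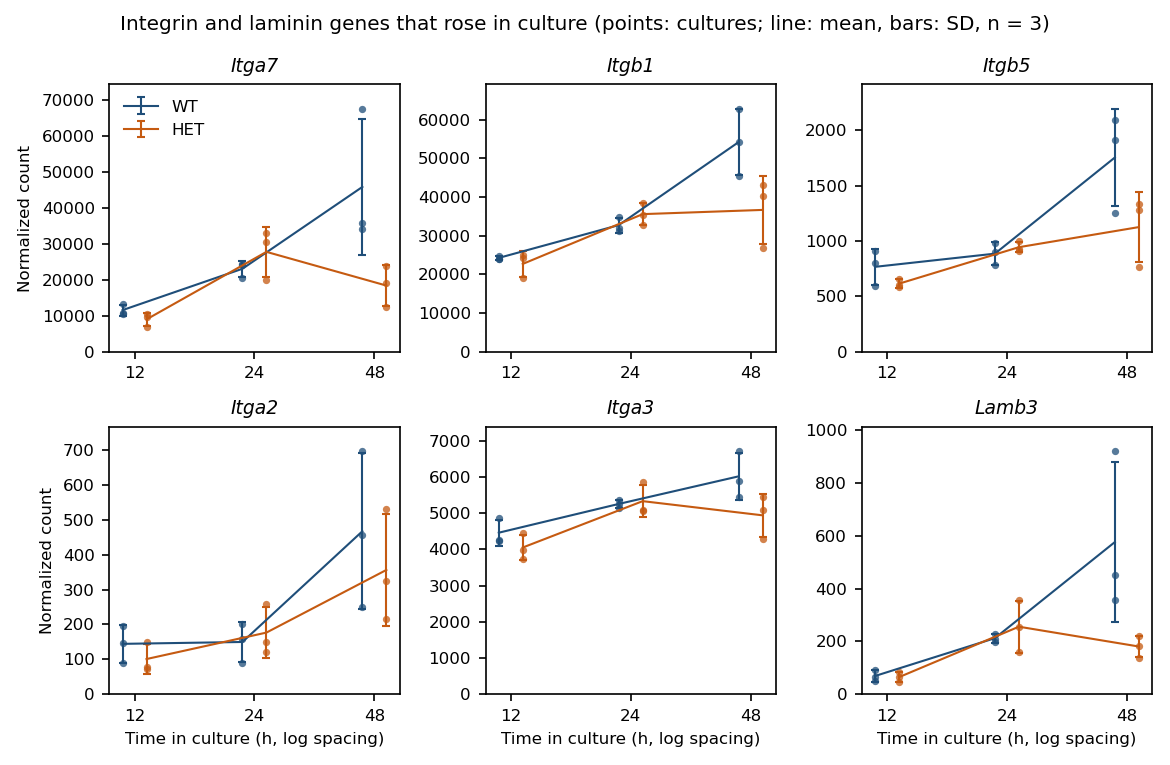
Normalized counts of the 6 members that rose from 12 to 48 h in WT. Each point is a culture, lines join the means of 3 cultures, bars are SD and the time axis is spaced logarithmically. WT (blue) reached its highest mean at 48 h in all 6 genes, and HET (orange) had the lower mean there; single cultures of the 2 genotypes overlap at 48 h for Itgb5, Itga2 and Itga3.

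Among the collagen receptors, Itga2, whose product pairs with Itgb1 to bind collagen, rose in both genotypes. It had 196, 148 and 88.6 normalized counts in WT at 12 h, 201, 159.7 and 88.5 at 24 h and 698, 457 and 249 at 48 h. In HET there were 150.3, 78.5 and 73.3 at 12 h, 259.9, 120.0 and 150.4 at 24 h and 530.5, 324 and 215 at 48 h. Every 48 h culture lay above the 12 h cultures of its genotype, while those at 24 h overlapped those at 12 h. At 48 h its log2 fold change was 1.64 in WT (SE 0.44, limma adjusted p 0.00612) and 1.796 in HET (SE 0.44, 0.0192). Itga10, also a collagen-binding subunit, fell in WT by 0.77 on the log2 scale (SE 0.25, limma adjusted p 0.0202) and had -0.29 in HET (0.448). Itga1 and Itga11 passed in no comparison. The 6 fibroblast markers moved in the same direction as Itga2: their summed normalized count went from between 4878 and 11608 at 12 h to between 17195 and 27597 at 48 h in WT, and from between 5525 and 9083 to between 12670 and 26305 in HET. Past the threshold, 4 of the 6 rose in WT and 3 in HET, and their part in the rise of Itga2 was not tested.

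The alphav integrins bind vitronectin, fibronectin and latent TGF-beta, and their beta subunits moved apart. Itgb5 rose (ENSMUSG00000022817, chr16:33829665-33949338). WT had 908, 801 and 592 normalized counts at 12 h, 981, 780.3 and 897 at 24 h and 1910.2, 2096 and 1258 at 48 h. HET had 658, 586 and 601 at 12 h, 909.7, 925 and 999 at 24 h and 1338, 1279 and 762 at 48 h. Each 48 h culture was above the 12 h cultures of its genotype, and HET replicate 3 was the lowest at 48 h. Its log2 fold change at 48 h was 1.18 in WT (SE 0.21, limma adjusted p 0.000337) and 0.83 in HET (SE 0.21, 0.0214).

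Itgb6, the epithelial partner of alphav that activates latent TGF-beta, fell in both genotypes (ENSMUSG00000026971, chr2:60598292-60722643). WT had 377, 366 and 421 normalized counts at 12 h, 293, 276 and 376 at 24 h and 102, 106 and 162 at 48 h. HET had 399, 455 and 352 at 12 h, 232, 392 and 277 at 24 h and 110.3, 174 and 274 at 48 h. No 48 h culture reached a 12 h culture of its genotype, and HET replicate 3 was again the one nearest to 12 h. Between 12 and 48 h the log2 fold change was -1.68 in WT (SE 0.27, limma adjusted p 0.000171) and -1.20 in HET (SE 0.27, 0.0159).

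Itgav itself, their alpha partner, passed over time in neither genotype. In WT it had 5650.1, 5159.9 and 4471 normalized counts at 12 h, 4161, 4225 and 3723 at 24 h and 8122, 5481 and 4716 at 48 h. In HET it had 3548, 3026 and 3514 at 12 h, 3584, 4428 and 4126 at 24 h and 5933, 5337 and 3634 at 48 h. WT at 48 h overlapped WT at 12 h, while HET at 48 h lay above HET at 12 h. Its log2 difference between 48 and 12 h was 0.23 in WT (SE 0.18, limma adjusted p 0.317) and 0.54 in HET (SE 0.18, 0.0566). Without HET replicate 3 at 48 h it passed in HET (0.75, limma adjusted p 0.00465). The other RGD-binding subunits Itga5 and Itga8 and the beta subunits Itgb3, Itgb7 and Itgb8 also passed in no comparison over time; their log2 differences at 48 h ran from -0.39 (Itga8) to 0.13 (Itgb7) in WT and from -0.68 (Itga8) to 0.63 (Itga5) in HET. Of these, Itgb3 had 0.45 in HET (limma adjusted p 0.147) and passed without HET replicate 3 (0.67, 0.0202). Itga4 and Itga9, which bind fibronectin, tenascin and VCAM-1, had -0.41 and 0.30 in WT. Itga9 passed from 12 to 24 h in HET, at 0.72 (SE 0.18, limma adjusted p 0.0129). From 12 to 48 h in HET it had 0.53 (0.0588), and it passed without HET replicate 3 (0.66, 0.0191).

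Of the integrins of blood cells, Itgb2, Itgal, Itgam, Itgax, Itga2b and Itgb2l fell in WT. Itgb2, the beta subunit of all leukocyte-specific alphaL, alphaM, alphaX and alphaD receptors, had 332, 569 and 158 normalized counts in WT at 12 h, 295, 259 and 226 at 24 h and 143, 114 and 157 at 48 h. HET cultures had 269, 407 and 326 at 12 h, 153, 203 and 372 at 24 h and 137, 133 and 291 at 48 h. WT replicate 5 at 12 h was the low culture and almost met the 48 h range; HET replicate 3 at 48 h was the high one. The log2 fold change was -1.18 in WT (SE 0.40, limma adjusted p 0.022) and -0.91 in HET (SE 0.40, 0.126), where it passed without HET replicate 3 (-1.28, 0.0270). The WT call was lost without WT replicate 1 at 12 h (limma adjusted p 0.0559), without replicate 2 at 12 h (log2 fold change -0.74, 0.139) and without replicate 2 at 48 h (0.0814).

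Itgal, the alpha subunit of LFA-1 on leukocytes, had 75.5, 138 and 71.1 normalized counts in WT at 12 h, 60.2, 45.4 and 55.6 at 24 h and 31.4, 21.4 and 32.1 at 48 h. HET had 86.5, 76.0 and 72.6 at 12 h, 24.6, 62.9 and 51.8 at 24 h and 32.9, 33.5 and 51.4 at 48 h. The 12 and 48 h cultures did not overlap in either genotype. From 12 to 48 h Itgal changed by -1.67 on the log2 scale in WT (SE 0.33, limma adjusted p 0.000762) and -1.01 in HET (SE 0.33, 0.0512). Without HET replicate 3 it passed in HET as well (-1.21, limma adjusted p 0.0197).

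Itgb2l, a gene related to Itgb2, had the largest fitted fall in WT. Its normalized counts were 72.6, 45.6 and 7.58 at 12 h, 23.8, 15.6 and 4.64 at 24 h and 1.27, 0.944 and 6.56 at 48 h in WT. In HET they were 42.8, 69.3 and 53.5 at 12 h, 14.0, 8.38 and 20.7 at 24 h and 4.15, 4.96 and 34.0 at 48 h. WT replicate 5 was the low culture at 12 h and HET replicate 3 the high one at 48 h, as for Itgb2. On the log2 scale the change was -3.26 in WT (SE 0.82, limma adjusted p 0.00404) and -2.43 in HET (SE 0.82, 0.0563), and without HET replicate 3 it passed there too (-3.32, 0.00652). Itgam, the alpha subunit of the complement receptor CR3, fell in WT by 0.91 on the log2 scale (limma adjusted p 0.0417), and its row joins 2 gene IDs. Itgax, which marks dendritic cells and some macrophages, fell by 1.04 (0.0204). Itga2b, the platelet fibrinogen receptor subunit, fell by 0.56 (0.0254). Neither Itgad nor Itgae passed, and none of these 5 passed in HET, with or without HET replicate 3 at 48 h.

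Markers of neutrophils followed the same cultures. The summed normalized count of 7 neutrophil genes was 3248, 6906 and 218 in WT at 12 h and 132, 101 and 146 at 48 h. In HET it was 3150, 7084 and 2938 at 12 h and 144, 199 and 1913 at 48 h. The low WT culture at 12 h (replicate 5) and the high HET culture at 48 h (replicate 3) were those with low and high Itgb2 and Itgb2l. Among WT cultures at 12 h, Itgal and Itgam were also lowest in replicate 5, while Itgax, Itgad and Itgae were highest in it. From 12 to 48 h, 6 of the 7 fell in WT and 5 in HET. The 9 macrophage genes went the other way in WT, from between 1342 and 1782 at 12 h to between 2479 and 4129 at 48 h, with 3 past the threshold higher and 1 lower, the pan-leukocyte gene Ptprc. The 5 lymphocyte genes summed to between 90.3 and 134 in WT at 12 h and between 20.4 and 60.2 at 48 h, and 2 of them fell. The 4 platelet genes went from between 448 and 589 to between 242 and 324 in WT, and 1 of them fell. The part of these cells in the fall of the leukocyte integrins was not tested.

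**Figure D3:**
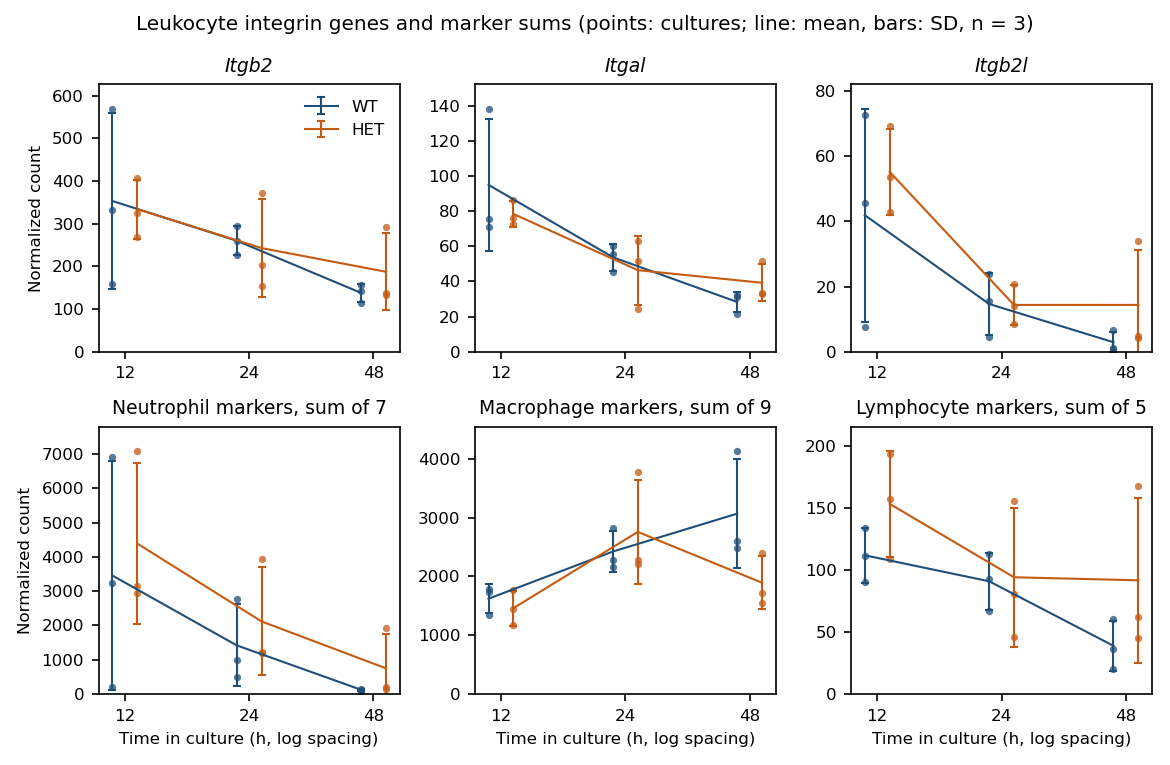
Normalized counts of 3 leukocyte integrin genes (top) and summed normalized counts of 3 marker lists (bottom) by time in culture. Points are cultures, lines join the means of 3, bars are SD (cut off at 0) and the time axis is spaced logarithmically. Itgb2, Itgal and Itgb2l fall with the neutrophil sum, while the macrophage sum in WT is highest at 48 h; the lone high HET culture at 48 h in the neutrophil, Itgb2 and Itgb2l panels is replicate 3.

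Of the laminin chains, Lamb3, the beta chain of epithelial laminin-332, rose most of all members in WT (ENSMUSG00000026639, chr1:193207699-193343878). WT had 92.9, 64.5 and 48.3 normalized counts at 12 h, 196, 211 and 229 at 24 h and 356, 922 and 452 at 48 h. HET had 84.1, 44.0 and 64.6 at 12 h, 356, 158 and 253 at 24 h and 220.3, 184 and 137 at 48 h. WT rose at each step without overlap, while HET at 48 h overlapped HET at 24 h and stayed above 12 h. The log2 fold change in WT was 1.66 at 24 h (SE 0.35, limma adjusted p 0.0242) and 2.98 at 48 h (2.93e-05), a 7.90-fold rise. In HET it was 1.95 at 24 h (0.00246) and 1.50 at 48 h (0.0173). The 24 h call in WT held without WT replicate 1 at 12 h and was lost without any of the 5 other cultures.

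Lama3, the alpha chain of the same trimer, had 214, 228 and 242 normalized counts in WT at 12 h, 254, 219.5 and 244 at 24 h and 214, 252 and 221 at 48 h. HET had 159, 175 and 161 at 12 h, 203, 251 and 251 at 24 h and 169, 189 and 185 at 48 h. WT cultures overlapped at all times (48 against 12 h, 0.00), while HET at 24 h lay above HET at 12 h, by 0.50 (SE 0.13, limma adjusted p 0.017).

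Lamc1, the gamma chain of most laminins, had 8759, 6964 and 7516 normalized counts in WT at 12 h, 5947, 7579 and 6395 at 24 h and 6632, 5556 and 4611 at 48 h. HET counts were 5714, 4561 and 6009 at 12 h, 5292, 7473 and 6163 at 24 h and 5673, 6425 and 5217 at 48 h. WT at 48 h lay below WT at 12 h, and the HET times overlapped. The log2 fold change was -0.48 in WT (SE 0.15, limma adjusted p 0.017) and 0.09 in HET (0.707). The WT call was lost without replicate 1 at 12 h (0.0756) or replicate 3 at 48 h (0.0910).

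Lama1, the alpha chain of laminin-111, had 299.7, 202 and 211 normalized counts in WT at 12 h, 150.3, 150.2 and 136 at 24 h and 109, 59.4 and 141 at 48 h. The HET values were 246, 177 and 182 at 12 h, 133, 189 and 149 at 24 h and 86.2, 129 and 152 at 48 h. Neither genotype had an overlap of its 12 and 48 h cultures. On the log2 scale Lama1 changed by -1.26 in WT (SE 0.28, limma adjusted p 0.00171) and -0.74 in HET (SE 0.28, 0.0825), where it passed without HET replicate 3 (-0.91, 0.0338).

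Lamb1, a beta chain of Schwann cell and vessel laminins, had 3087, 2698 and 3309 normalized counts in WT at 12 h, 2784, 3282 and 3918 at 24 h and 4695, 4989.7 and 3647 at 48 h. HET had 2106, 1812 and 2750.3 at 12 h, 2619.5, 4034 and 4221 at 24 h and 3266, 4321 and 2268 at 48 h. WT at 48 h was above WT at 12 h without passing the threshold (0.54, SE 0.22, limma adjusted p 0.0551). HET rose at 24 h, by 0.70 (0.0385), although its lowest 24 h culture lay below its highest 12 h culture. That call was lost without HET replicate 1 or 2 at 12 h, or without HET replicate 2 or 5 at 24 h. Lama2, Lama4, Lama5, Lamb2 and Lamc3 passed in no comparison over time, with log2 differences between 48 and 12 h from -0.48 (Lama5) to 0.50 (Lama2) in WT and from -0.23 (Lama5) to 0.70 (Lama2) in HET. From 12 to 48 h in HET and without HET replicate 3, Lamb1 (0.78, limma adjusted p 0.0137), Lama2 (1.01, 0.0125) and Lamb2 (0.78, 0.0171) passed, against 0.54 (0.110), 0.70 (0.101) and 0.50 (0.1605) with it. The summed normalized count of 8 endothelial genes went over the same interval from between 10559 and 13410 to between 5646 and 7883 in WT (4 fell past the threshold) and from between 6839 and 11096 to between 6506 and 8688 in HET (1 past it), and its part in the laminin changes was not tested.

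From 12 to 24 h, 2 members rose in WT (Itga7 and Lamb3) and none fell, beside 3.62% of all genes called (2.96% higher, 0.657% lower). In HET, 8 members rose and none fell, beside 18.9% of all genes called (13.1% higher, 5.76% lower): Itgb1, Itga7, Itga3, Itgb5, Itga9, Lamb1, Lamb3 and Lama3. The HET count was 4 without HET replicate 2 at 12 h and 5 without replicate 5 at 24 h. No share of all genes is set beside these counts of 4 and 5. The HET call of Itgb5 was lost without any single culture of the comparison (limma adjusted p 0.0711 to 0.150). Those of Itgb1 and Itga3 were lost without HET replicate 2 at 12 h, and that of Itga3 also without replicate 1 at 24 h. The call of Lama3 was lost without HET replicate 2 or 5 at 24 h. The 12 and 24 h cultures did not overlap for 9 members in WT, beside 26.9% of all genes, and for 14 in HET, beside 38.4%. The scaling of the columns bears on the direction of all these time comparisons. Between 48 and 12 h, the share of called genes that were higher was 63.6% in WT and 74.5% in HET, and on the authors' adjusted columns without the last scaling it was 52.6% and 51.9%. For 24 against 12 h in HET it was 69.5% and 57.1%. The median log2 fold change of all genes for 48 against 12 h was 0.11 in WT and 0.10 in HET, and on the adjusted columns 0.01 in both. On those columns, 6 members were higher and 12 lower in WT, and 5 higher and 3 lower in HET, and no gene named above for a call changed its sign. The share of all genes called on those columns is not given, so these member counts are not read as particular to the members.

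The comparison of genotypes addresses how a single intact copy of Dynlrb1 bears on these genes. At 12 and 24 h no member passed in limma (0 of 39, beside 0.00581% of all genes at each time), with 8 members at an unadjusted p under 0.05 at 12 h, beside 8.41% of all genes, and 2 at 24 h, beside 1.15%. At 12 h, 33 of 39 members had a lower mean in HET, with a median log2 difference of -0.23 against -0.02 over all genes. Of all 17198 genes, 9088 had a lower mean in HET at that time. The 2 genotypes did not overlap for 8 members at 12 h, all lower in HET, beside 15.1% of all genes without overlap: Itga7, Itga6, Itgav, Itgb3, Itga9, Lamc1, Lama2 and Lama3. The largest of these differences was in Lama2, the alpha chain of muscle and Schwann cell basement membranes, which had 1774, 1275 and 1806 normalized counts in WT and 966, 766 and 1181 in HET, a log2 difference of -0.74 (SE 0.28, limma adjusted p 0.577). Medians at 12 h were also negative for other basement membrane genes (-0.47), other integrin ligands (-0.24), integrin adaptors (-0.22) and listed non-integrin laminin receptors (-0.12). Marker medians were -0.36 (endothelium), -0.28 (fibroblasts), -0.19 (Schwann and satellite glia) and -0.09 (macrophages). They were positive for neurons (0.09), pericytes (0.09), platelets (0.14), lymphocytes (0.39) and neutrophils (1.16). Their part in the members' differences was not tested. At 24 h, 21 members were lower and 18 higher in HET, beside 8104 genes lower and 9094 higher. The genotypes did not overlap for 3 members (Itga9 higher, Itga2b and Itga10 lower), beside 5.6% of all genes.

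At 48 h, Itga7, Itgb1 and Lamb3 were lower in HET, with no HET culture reaching the lowest WT culture. Without regard to the replicate numbers, no member and no gene passed in limma (0%), with 6 members and 3782 genes (22%) at an unadjusted p under 0.05. The log2 fold change was -1.29 for Itga7 (SE 0.26, limma adjusted p 0.0502), -0.58 for Itgb1 (SE 0.15, 0.0604) and -1.57 for Lamb3 (SE 0.35, 0.0502). Including Lama3 (lower) and Itgal (higher), 5 members did not overlap, beside 24% of all genes. Of the 39 members, 22 were lower and 17 higher in HET, beside 9421 of 17198 genes lower. The median log2 difference was -0.06 for the members and -0.03 over all genes.

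At this time the replicate numbers were taken as pairs of the 2 genotypes. The labels do not state such pairs. They were inferred from these same values, in which same-numbered cultures at 48 h correlated at 0.209 to 0.461. WT replicate 2 and HET replicate 1, with different numbers, correlated at 0.178. The block was applied at all 3 times. With the number as a block, 7 members passed in limma, all lower in HET, beside 12.3% of all genes (7.29% lower, 5.04% higher). They were the receptor subunits Itgb1, Itga7, Itga3 and Itgb5 and the laminin chains Lamb1, Lama2 and Lamb3. HET had less than its same-numbered WT culture in 3 of 3 pairs for all 7 genes. Itga7 was at 55.6%, 35.3% and 34.5% of WT in pairs 1, 2 and 3, with a limma adjusted p of 0.00151 in the blocked fit. Lamb3 was at 61.9%, 19.9% and 30.4% (0.00710), so both genes were closest to WT in pair 1. Itgb1 was at 74.1%, 68.5% and 58.7% (0.00284), and Itgb5 at 70.0%, 61.0% and 60.6% (0.00532). Itga3 differed least, at 86.1%, 81.2% and 78.9% (0.0234). Lamb1 was at 69.6%, 86.6% and 62.2% (0.0147). Lama2 had 3131, 2516 and 1460.1 normalized counts in WT and 1668, 2219.5 and 1015 in HET, or 53.3%, 88.2% and 69.5% (0.0192), so that its groups overlapped although each pair had the same direction. In the same fit, 2 of 9 macrophage markers and 1 of 6 fibroblast markers were lower in HET, 2 of 5 lymphocyte markers and 1 of 7 neutrophil markers were higher, 2 of 12 neuron markers were higher and 1 lower, 1 of 12 markers of Schwann cells and satellite glia was higher and 1 lower, 1 of 6 markers of pericytes and smooth muscle was higher and 1 lower, and 0 of 4 platelet and 0 of 8 endothelial markers passed. Their part in the differences of the members was not tested.

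The size of these differences depended on HET replicate 3. Without it and without the block, no member passed (0), and the log2 fold changes were -1.03 for Itga7, -0.37 for Itgb1, -0.39 for Itgb5 and -1.39 for Lamb3. With the block and without that culture, an alternative chosen after seeing the data, 3 members passed: Itga7 (-1.17, limma adjusted p 0.0151), Itgb1 (-0.49, 0.0266) and Itgb5 (-0.61, 0.0417). Lamb3 had -1.51 (0.0528) in that fit. Without the block, 4 members passed when WT replicate 3 was left out (Itgb1, Itga7, Itgb5 and Lamb3) and 3 when HET replicate 1 or HET replicate 2 was (Itgb1, Itga7 and Lamb3). Counts from fits that leave out a culture are given here without the share of all genes, so they are not read as particular to the members. In the authors' deposited table, 4 members had an adjusted p under 0.05 at 48 h, all lower in HET (Itgb1, Itga7, Itgb5 and Lamb3), beside 5.98% of all genes.

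**Figure D4:**
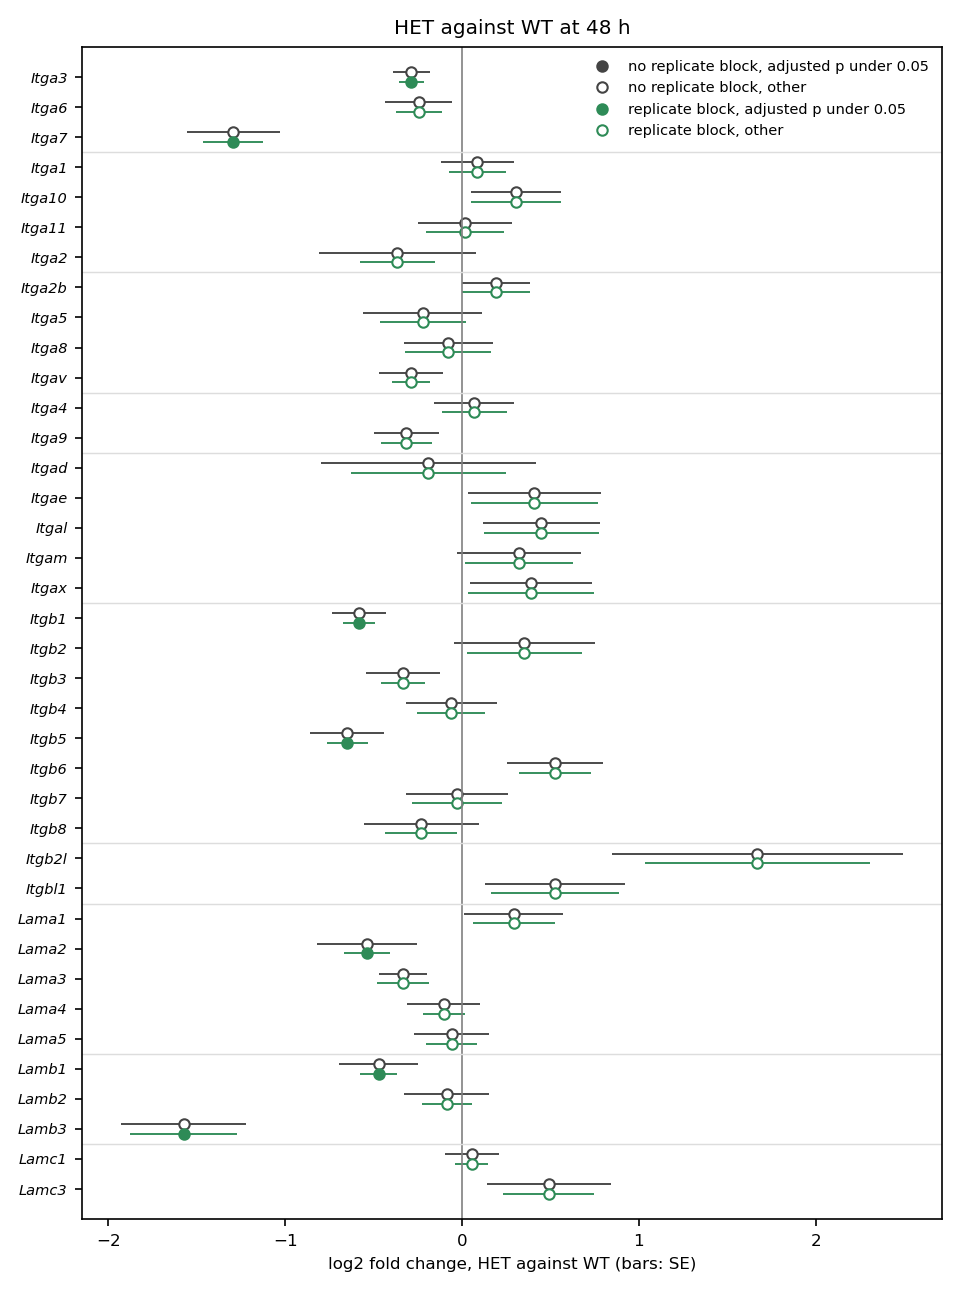
Difference between HET and WT at 48 h for the integrin and laminin genes reported here, without (grey) and with (green) the replicate number as a block. The x axis is the log2 fold change on the log2(normalized count + 1) scale, bars are SE and filled points passed limma at an adjusted p under 0.05. The 7 filled points, all green, lie left of 0, with Lamb3 (-1.57) and Itga7 (-1.29) farthest from it; Itgb2l lies farthest right (1.67) with the widest bar.

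Averaged over the 3 times, no member passed (0 of 39, beside 0.0174% of all genes), with 10 at an unadjusted p under 0.05, beside 13.5% of all genes. With the replicate number as a block, 6 members passed, all lower in HET, beside 3.22% of all genes. All 3 same-numbered pairs correlated above 0.1 at 48 h alone. The mean was lower in HET for 30 of 39 members, beside 9653 of 17198 genes, with a median of -0.14 against -0.02 over all genes. The lowest p-values belonged to Itga7 (-0.48, SE 0.15, limma adjusted p 0.310), Lama3 (-0.28, SE 0.08, 0.310) and Itgav (-0.29, SE 0.11, 0.313).

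The change from 12 to 48 h was not shown to differ between the genotypes for any member: 0 of 39 passed, beside 0% of all genes, with 4 members and 1534 genes (8.92%) at an unadjusted p under 0.05. The difference in change was -1.48 for Lamb3 (SE 0.50, limma adjusted p 0.548), -0.92 for Itga7 (SE 0.37, 0.548) and -0.48 for Itgb1 (SE 0.22, 0.551), and it was 0.57 for Lamc1 (SE 0.22, 0.548). It was positive for 32 of 39 members, beside 8357 of 17198 genes, with a median of 0.23 against -0.01 over all genes. The WT and HET comparisons over time thus differ in their counts, 17 and 7, without a member whose difference passed.

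Other genes of the adhesion pathway were counted from 4 lists. Of all genes, 30% rose and 17.1% fell from 12 to 48 h in WT. In HET, 10.6% of all genes rose and 3.62% fell, and 28.4% passed without HET replicate 3 at 48 h. The list counts are to be read beside these shares. Of 35 measured adaptors and signalling genes at integrin tails, 6 rose and 9 fell from 12 to 48 h in WT (median 0.03, beside 0.11 over all genes). Tln1, the talin that activates integrins, rose by 0.63 on the log2 scale (limma adjusted p 0.00375), while the neuronal talin Tln2 fell by 0.73 (0.000667) and Parvb, a partner of integrin-linked kinase, fell by 1.26 (0.000581). In HET none of the 35 passed (0, median 0.10), and 9 did without HET replicate 3 at 48 h. Of 14 other basement membrane genes, Nid1, which bridges laminin and collagen IV, rose in both genotypes (1.05 in WT, limma adjusted p 0.00572, and 1.08 in HET, 0.0224), and Col4a3 fell in WT (-0.77, 0.0351). Without HET replicate 3 at 48 h, 5 of the 14 passed in HET.

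All 8 genes on the chosen list of non-integrin laminin receptors were measured, and 5 rose and 1 fell in WT (median 0.53). Sdc1, a heparan sulphate proteoglycan, went from a mean of 2357 to 31715 normalized counts in WT, a log2 fold change of 3.61 (limma adjusted p 3.29e-05). In HET it went from 2141 to 8116 (1.88, 0.0171). Bcam, a receptor for laminin alpha5, rose by 0.83 in WT (4.46e-05) and 0.45 in HET (0.0180), and Sdc4 fell by 1.60 in WT (0.000251). Of 16 other integrin ligands, 7 rose and 4 fell in WT (median 0.41) and 5 rose in HET (median 0.64). Mfge8, a ligand of alphav integrins, rose by 2.86 in WT (3.81e-05) and 1.57 in HET (0.0167), and Spp1 (osteopontin) by 2.31 (0.000235) and 1.26 (0.0425). Vtn (vitronectin) fell by 2.14 in WT (0.00113). The collagens Col1a1 and Col3a1 are on this list and are also fibroblast markers. The HET counts of the receptors and ligands were both 0 without HET replicate 2 at 12 h or HET replicate 1 or 2 at 48 h. No share of all genes is set beside these counts of 0. Without HET replicate 3 the ligand count was 10, beside 28.4% of all genes.

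For the comparisons over time, the authors' deposited table had 18 members past an adjusted p of 0.05 between 48 and 12 h in WT (7 higher, 11 lower, beside 45.4% of all genes). In HET it had 10 (8 higher, 2 lower, beside 15.5%). From 12 to 24 h it had 2 in WT (beside 4.97%) and 11 in HET (9 higher, 2 lower, beside 18.3%). Between genotypes it had 0 at 12 h (beside 0.0233%) and 0 at 24 h (beside 0.0116%).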

How the data were processed

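The deposited table held 17198 genes for 18 cultures, with groups and replicate numbers taken from the sample titles. The submitters' processing notes name CASAVA 1.8.2, edgeR and mm10; the aligner, counter, annotation and gene filter are not given in the sources used here. Per the file headers, the authors deposited normalized counts (a signal with no whole number and no 0, column totals 41509705 to 41509874), FPKM, their own log2 fold changes, p-values and adjusted p-values, and a rank, a score that was not used. A second set of adjusted signal columns had totals from 39465712 to 44213485. The logarithms of the deposited values spanned 15 of 17 possible dimensions, so 2 directions among samples had been removed, by a step the headers do not state; the residual degrees of freedom given below may therefore be too many and the p-values too small. Depth is unknown, and no interval or floor was computed.

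Because the values were not counts, limma 3.58.1 (R 4.3.3) was fitted to log2(normalized count + 1) of all genes with a mean of at least 1 (0 genes removed), with 1 coefficient per group over all 18 samples (12 residual and 4.97 prior degrees of freedom) and eBayes with a trend. P-values were adjusted by Benjamini-Hochberg over all genes in each of 9 comparisons. Log2 fold changes on this scale understate the change of low genes. P-values measure the spread between cultures; what a replicate number stands for is not given in the labels. Deviations of same-numbered WT and HET cultures from their group means correlated across genes at 0.209 to 0.461 at 48 h (all 3 pairs over 0.1), so the numbers in the titles were taken as pairs in that comparison. In genotype comparisons the blocked fit had a term for every same-numbered pair at all 3 times. Its spread therefore also rested on the pairs at 12 and 24 h, and 6 residual degrees of freedom remained. Replicates of a group correlated at 0.978 to 0.992.

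Members, gene lists and tests were chosen with earlier results of these data known. Values of every culture are given for Itga3, Itga6, Itga7, Itgb1, Lamb1 and Lamc1, for up to 4 integrins and 3 laminins with the largest rise and fall from 12 to 48 h among called members without overlap whose mean was 10 or more, and for the 3 members with the lowest p averaged over times; Lama2, Itgb4 and the genes named from the pathway lists were chosen after their values were seen. Coordinates are from GENCODE M21 (GRCm38), which lacked the ID of Itgam. Alternatives were a pseudocount of 0.1, a minimum mean of 5, no filter, quantile normalization, the adjusted columns, the removed directions as covariates, the samples compared alone, the replicate block and leaving out each culture. The fit was tested on simulated data. Counts cover all members; the values of 1 member are not reported here.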

Additional observations from a re-analysis of the deposited data

Results flagged for a closer look

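In 8 of 39 genes, all HET cultures lay on one side of the WT mean (log2 scale) at one time. At another time they lay on the other side. This rule was not applied to all genes, so the count has no background share. The difference between 12 and 48 h did not pass for Itga2b (limma adjusted p 0.642) or Itgal (0.639). The differences between the other times were not tested. For Itgb1 the log2 difference between HET and WT was 0.12 at 24 h and -0.58 at 48 h, a change of -0.70. Itgb5 had -0.30 at 12 h, then 0.10 at 24 h (a change of 0.40), then -0.65 at 48 h (a change of -0.75). Itga9 had -0.55 at 12 h, 0.34 at 24 h (a change of 0.89) and -0.32 at 48 h (a change of -0.66). Itgb4 had -0.72 at 12 h and 0.26 at 24 h (a change of 0.98). The other 4 were lower in HET first and higher at 48 h. Itga2b went from -0.19 at 12 h and -0.43 at 24 h to 0.19 at 48 h (changes of 0.38 and 0.63), Itgax from -0.58 at 24 h to 0.39 (0.97), Itga10 from -0.61 at 24 h to 0.30 (0.91) and Itgal from -0.21 at 12 h to 0.45 (0.66). HET replicate 3 at 48 h was the lowest HET culture of its group for Itgb1 and Itgb5.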

How the results depend on the processing

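A pseudocount of 0.1, a minimum mean of 5 and no filter moved no count of members past the threshold by over 1.5 times. No named result changed sign under any alternative. Counts over 39 members moved as follows, and the causes were not tested. With the replicate block, HET against WT gave 7 at 48 h and 6 averaged over times (Itga7, Itgav, Lamb1, Lama2, Itgb5 and Itgb3, all lower, beside 3.22% of all genes), 24 against 12 h in HET 15 (beside 26.2%) and 48 against 12 h in HET 20 (beside 30.8%); Lamc1 (-0.37) and Itga10 (-0.70) no longer passed from 12 to 48 h in WT, where the count was 19 (beside 47.4%). Outside the 48 h genotype comparison the numbers did not pair the cultures by the rule: same-numbered WT and HET cultures correlated at 0.032 to 0.188 at 12 h and -0.207 to 0.258 at 24 h, and those of 12 and 24 h at -0.197 to 0.164 in WT and 0.028 to 0.357 in HET. With the block and the removed directions, these counts were 7, 2, 19 and 20, and 24 against 12 h in WT gave 7. With the block and without HET replicate 3 at 48 h they were 3 at 48 h, 1 for the average and 20 for 48 against 12 h in HET. Fitting the compared samples alone gave 0 for 48 against 12 h in HET. Quantile normalization gave 2 between genotypes at 48 h (Itga7 and Lamb3) and 1 for 24 against 12 h in WT, as did the adjusted columns (1) and the removed directions (1). Leaving out 1 culture in turn gave 4 to 8 for 24 against 12 h in HET, 0 to 1 for 24 against 12 h in WT, 0 to 18 for 48 against 12 h in HET, 11 to 17 in WT, 0 to 4 between genotypes at 48 h and 0 in the other comparisons. These ranges, and the counts above that have no percentage beside them, are given without the share of all genes. They are not read as particular to the members. A planned DESeq2 fit was not run, because the values were not counts. Unknown depth limits the low genes most, such as Itgb2l and Itgad.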
